A study of Mus musculus with 6 samples.

Results

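The ribosomal protein genes of the mouse genioglossus, the tongue muscle that pulls the tongue forward, are described here in single-cell RNA sequencing of muscle taken in an obstructive sleep apnea (OSA) model. Genes were taken by symbol, as cytoplasmic ribosomal proteins of the large or small subunit or of the acidic P stalk, and had to hold at least 1000 unique molecular identifiers (UMIs, molecules counted once each) over all matrices. Of 33696 genes counted, 83 matched by symbol and 80 were members. They were 45 large subunit genes, 32 small subunit genes and 3 P stalk genes (Rplp0, Rplp1 and Rplp2). The 3 left out were Rpl10l with 0 UMIs, Rpl39l with 455 and Rpl3l with 658. In the cells kept after filtering Rpl39l had 135, 57 and 166 UMIs in OSA replicates 1 to 3 and 77 in control replicate 2, and Rpl3l had 147, 211 and 118 in OSA and 148 in control.

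The OSA samples (label OSA-4W) are from male mice whose genioglossus was taken at week 4 of the model, and the control samples from male mice of the control group. Strain, age and the way OSA was modelled are not given in the labels, which put every sample in batch 1. Count matrices were held for OSA replicates 1, 2 and 3 and for control replicate 2, while control replicates 1 and 3 were not analysed here. Every comparison rests on 3 OSA libraries and a single control library. Nothing in the labels says whether libraries came from separate animals, so that p-values measure only the spread between these libraries. The labels name skeletal muscle cells, but barcodes led by the myofibre genes Ckm, Acta1 and Myl1 numbered 30, 91 and 43 in OSA and 31 in control, and satellite cells (muscle stem cells, led by Pax7) 320, 273 and 322 in OSA and 273 in control, out of 12229 to 15218 kept cells per library.

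Ribosomal proteins assemble with ribosomal RNA into the large and small subunits that translate every mRNA, and growing cells make more of them. Their mRNAs are among the most abundant in any cell and most begin with a run of pyrimidines, the 5′ terminal oligopyrimidine (TOP) tract, through which mTORC1 sets how strongly they are translated. Most subunit proteins are needed in equal number. A few have paralogues, among them Rpl39l for Rpl39 (a small protein at the exit tunnel of the large subunit), Rpl22l1 for Rpl22 and Rps27l for Rps27.

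The stretches around the transcription starts of 4 members are shown because 3 of them (Rpl39, Rpl22l1 and Rps24) differed most from the other members in OSA, while Rpl35 is shown for its pyrimidine-rich start. They are from RefSeq on GRCm38.p6, whereas the counts were made on GRCm39, and 60 of the 80 members had an entry. Each holds 60 bases before the annotated start in lower case and the first 20 transcribed bases in capitals.
Rpl39 (chrX:37085203-37085282, minus strand): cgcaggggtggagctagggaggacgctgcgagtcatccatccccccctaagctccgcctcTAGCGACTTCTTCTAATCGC
Rpl22l1 (chr3:28805448-28805527, plus strand): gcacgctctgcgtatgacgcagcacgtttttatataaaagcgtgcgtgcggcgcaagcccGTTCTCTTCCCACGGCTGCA
Rps24 (chr14:24490618-24490697, plus strand, the first of 2 starts in the table): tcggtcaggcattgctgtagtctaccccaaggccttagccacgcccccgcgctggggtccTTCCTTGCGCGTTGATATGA
Rpl35 (chr2:39005112-39005191, minus strand): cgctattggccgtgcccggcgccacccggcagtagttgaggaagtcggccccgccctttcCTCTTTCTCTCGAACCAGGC

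A pyrimidine word typical of TOP starts (CTCTTT, or the similar word CTTTCC, or the further word CTTTTC) lay on the coding strand within 100 bases before to 50 after a start in 37 of the 60 members (61.7%), against 4818 of 27025 genes in the table (17.8%). The words can overlap each other and a gene was counted once. Rpl35 held such a word in the stretch shown, and Rps24 only in the wider window searched, outside the stretch shown. Rpl39 and Rpl22l1 held none of these words, although both have other pyrimidine runs just after the start that the words do not cover. The ETS family core CCGGAAG lay on either strand of the same window in 19 of 60 members (31.7%) and in 2031 of 27025 genes (7.52%). Of the 4 genes shown only Rpl39 held it, and outside the stretch shown. These are matches of letters in a window and not mapped sites.

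The coding sequences of Rpl39 and Rpl39l are shown because reads of a pair of paralogues can be told apart only where they differ. The coding sequences (GENCODE M21, each 156 bases and 51 codons with the stop left out) differ at 23 positions, written in capitals, and are 85.3% identical.
Rpl39 (chromosome X): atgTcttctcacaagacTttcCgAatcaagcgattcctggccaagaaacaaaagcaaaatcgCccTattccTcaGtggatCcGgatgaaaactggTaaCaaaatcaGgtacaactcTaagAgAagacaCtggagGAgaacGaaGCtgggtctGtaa
Rpl39l (chromosome 16): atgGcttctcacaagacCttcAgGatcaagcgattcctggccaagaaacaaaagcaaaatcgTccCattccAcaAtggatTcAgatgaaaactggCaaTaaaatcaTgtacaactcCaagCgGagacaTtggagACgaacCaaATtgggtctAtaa
Ribosomal protein genes have many processed copies in the genome: 79 of the 80 members shared at least 1 identical run of 50 coding bases with another annotated gene, with a median of 9 such genes and 120 for Rpl7a. For 12 members such a gene was also a row of the count tables. Rpl39 shared a run with 8 genes, Rpl22l1 with 3 and Rps24 with 9, none of them a row of the tables. Counts of Rpl10, Rpl36a and Rps27 are less certain, since Rpl10-ps3 held 16896 UMIs, Rpl36al 121567 and Rps27rt 21912.

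The 4 libraries held 74007957 to 82184913 UMIs in OSA and 70217449 in control, with a median of 3889, 4879 and 4579 UMIs per barcode in OSA replicates 1 to 3 and 4111 in control. Cells were clustered without the ribosomal protein genes and classes were named from marker lists. A class had to hold at least 30 kept cells in every library, which left 12 classes for tests, while 12.6%, 11.8% and 19.8% of OSA cells and 11.7% of control cells stayed unnamed. Pairs of libraries shared 52 to 67 barcodes. In some of the 12 classes the content goes partly against the name. In myofibre barcodes the 8 myofibre markers summed to 8690, 5955 and 3796 CPM in OSA and 58888 CPM in control, so that the groups lay far apart in the markers that named the class. Endothelial markers summed to 3158, 2942 and 2758 CPM in OSA and 2570 CPM in control there, beside 3329, 3251 and 3042 CPM in OSA and 3573 CPM in control in the endothelial class itself. The erythroid class was led by haemoglobin genes, and its endothelial markers summed to 2716, 2596 and 2244 CPM in OSA and 2814 CPM in control. Its genes of the adipocyte list summed to 11581, 10099 and 9127 CPM in OSA and 11633 CPM in control, beside 13851, 12778 and 11478 CPM in OSA and 13584 CPM in control in endothelial cells. In the mural class endothelial markers summed to 1283, 1499 and 1191 CPM in OSA and 1335 CPM in control. Its mural markers summed to 10132, 7503 and 8377 CPM in OSA and 10446.5 CPM in control. The part of this content in the values of these classes was not tested.

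Over all kept cells the members took 13.4%, 14.3% and 17.2% of the UMIs in OSA replicates 1, 2 and 3, and 13.7% in control replicate 2, so that the control lay inside the OSA range. Satellite cells held the highest share, with 27.4%, 28.7% and 32.5% in OSA and 26.8% in control. Neutrophils held the lowest, with 4.50%, 5.06% and 4.89% in OSA and 5.63% in control. Satellite cells were the highest class in 3 of the 4 libraries and neutrophils the lowest in 4 of 4, while in control the T and NK class, with 31.9%, stood above the satellite cells. Some named classes with too few cells for tests were high too. B and plasma cells held 26.7%, 23.4% and 23.8% in OSA and 24.6% in control. Monocytes held 20.7%, 23.8% and 21.4% in OSA and 19.5% in control, while perineurial cells held 12.4%, 11.9% and 15.4% in OSA and 13.1% in control.

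**Figure D1:**
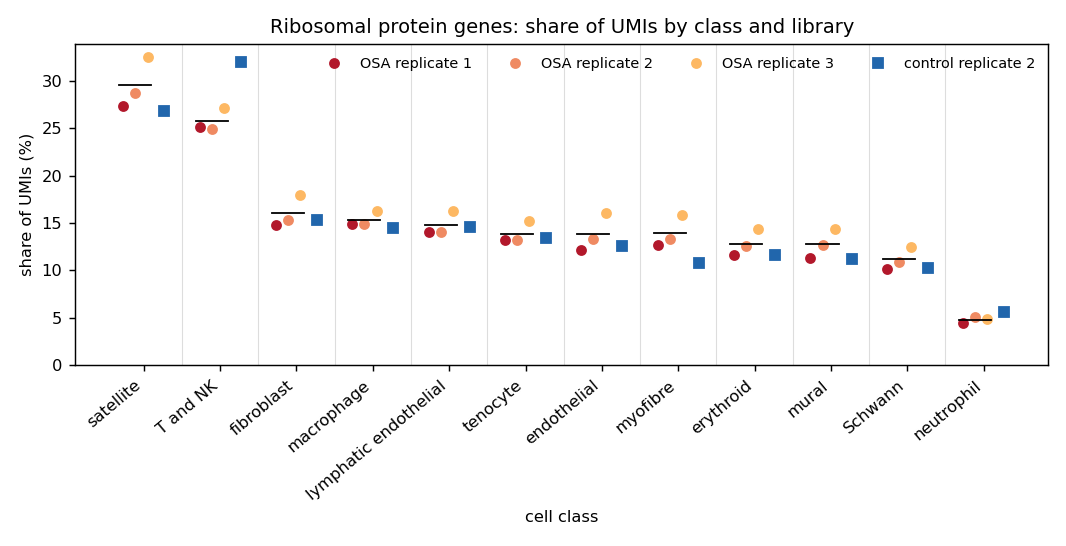
Share of UMIs that fell on the 80 ribosomal protein genes (vertical axis, percent) in 12 cell classes (horizontal axis). Circles are OSA replicates 1 to 3 from left to right, squares are control replicate 2 and the black bar is the OSA mean. Satellite cells and the T and NK class lie far above the other classes shown and neutrophils lie below them, and OSA replicate 3 is the highest library in 10 of 12 classes.

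Between the middle classes the shares were close. The median over the 12 classes was 12.9%, 13.3% and 15.9% in OSA replicates 1 to 3 and 13.0% in control. Fibroblasts held 14.8%, 15.3% and 18.0% in OSA and 15.3% in control, and endothelial cells 12.1%, 13.4% and 16.1% in OSA and 12.6% in control. In both classes the control library fell among the OSA libraries. OSA replicate 3 had the highest share of the 4 libraries in 10 of 12 classes. It also had fewer genes per cell in several of them, with a median of 2545 genes in fibroblasts, against 2724 and 2954.5 in OSA replicates 1 and 2 and 2816 in control, and 1712 in satellite cells, against 2089 and 2250 in the other OSA replicates and 2135 in control. The part of this in the shares was not tested.

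The question whether the share differed between OSA and control was put to each class with an exact two-sided permutation test over the 4 libraries, whose smallest possible value is p = 0.25. The control lay inside the OSA range in 6 classes. All OSA libraries were above control in macrophages, mural cells (pericytes and smooth muscle), myofibre barcodes and satellite cells, by 0.872, 1.61, 3.14 and 2.73 percentage points between the OSA mean and control, and each of these gave an exact p = 0.5. All OSA libraries were below control in the T and NK class, with a difference of -6.18 points, and in neutrophils, with -0.818 points, and both gave an exact p = 0.25.

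The clusters that make up these classes were filled unevenly. Among macrophages the cluster led by Ms4a7 had 113, 31 and 357 cells in OSA and 1 in control, and those led by H2-M2 and by Mmp12 had cells in the OSA libraries only. The clusters led by Ccl12 and by Cd209f held 44.0% and 42.5% of control macrophages. Within the Ccl12 cluster the members took 13.7%, 13.9% and 15.3% of the UMIs in OSA and 13.99% in control. Within the Cd209f cluster they took 12.4%, 13.7% and 16.1% in OSA and 12.95% in control, and within the Ear2 cluster 16.3%, 16.5% and 19.7% in OSA and 17.2% in control. In each of these 3 clusters the control lay inside the OSA range, unlike in the whole class. In neutrophils the cluster led by Csf3r, which held 90.7% of the control cells, also overlapped, with 5.10%, 5.01% and 5.76% in OSA and 5.601% in control. In the neutrophil cluster led by Il36g all OSA libraries were below control, with 3.79%, 4.26% and 4.56% in OSA and 5.83% in control. That cluster had 70, 21 and 160 cells in OSA and 4 in control. Of the 3 mural clusters given here, all OSA libraries were above control in those led by Higd1b and by Pln, while that led by Actg2 overlapped. Satellite cells and myofibre barcodes were each a single cluster. In myofibre barcodes the share stands beside the difference in myofibre markers given above.

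In the T and NK class the members took 25.1%, 24.97% and 27.2% of the UMIs in OSA and 31.9% in control, so that the groups did not overlap. Of the 80 members tested 77 had a negative log2 change (OSA minus control) and the median was -0.43, while the median of all 6846 genes tested in the class was 0.05. The 3 above 0 were Rpl39, Rpl22l1 and Rps27l. All OSA libraries lay below control for 73 of the 80 members, where 27.4% of all genes tested did so. Rps29, a zinc-binding protein of the small subunit, was the only member that passed the threshold (adjusted p under 0.05), where 0.701% of all genes tested were called lower.

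Rps29 had 5228, 5679 and 6290 CPM (counts scaled to equal TMM-corrected library totals) in OSA replicates 1, 2 and 3 and 9445 CPM in control. It fell by 0.72 ± 0.20 on the log2 scale (SE; edgeR quasi-likelihood test, adjusted p = 0.0483). Rps27, next in order, had 5779, 6495 and 6808 CPM in OSA and 10398 CPM in control, with a log2 change of -0.71 ± 0.20 and an edgeR adjusted p just above the threshold of 0.05. For both genes every OSA library was well below the control. Rplp0, which anchors the P stalk where elongation factors bind, had 2986, 2970 and 3674 CPM in OSA and 4055 CPM in control (log2 change -0.34 ± 0.22, adjusted p = 0.627). The laminin receptor gene Rpsa had 2430, 2385 and 3014 CPM in OSA and 3684 CPM in control, with adjusted p = 0.352. Over the class 37 of 80 members had an unadjusted p under 0.05 in edgeR, where 812 of all 6846 genes tested did so. Without OSA replicate 3 edgeR called most members lower in this class, a larger part than of all genes, whose calls rose as well. Without OSA replicate 1 or 2 it called no member lower, and DESeq2 with all libraries called 0. The median stayed below 0 in these fits, at -0.54, -0.40 and -0.38 without OSA replicates 3, 1 and 2, and at -0.29 with class totals as the only scaling. It was 0.02 when counts were scaled by the ribosomal protein UMIs themselves, which takes off any shift that the members share.

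The makeup of the T and NK class differed between the libraries. The cluster led by Trbc2, Lef1 and Cd3d made up 52.1%, 34.6% and 53.7% of the class in OSA and 63.0% in control. The cluster led by Scart1, Trdc and Cd3g had 21, 24 and 55 cells in OSA and 3 in control, and that led by Gzma, Nkg7 and Ccl5 had 13, 10 and 13 cells in OSA and 37 in control. Within the Trbc2 cluster the members still took 31.5%, 31.7% and 29.6% of the UMIs in OSA (37, 18 and 79 cells) and 37.8% in control (68 cells). Within the Gzma cluster the OSA libraries were above control, with 20.01%, 20.4% and 28.8% in OSA and 18.9% in control. The part of the makeup in the class value was not tested.

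In the other 11 classes most members had small positive changes. Over all 12 classes the 80 members gave 957 tests, of which 791 were above 0, 2 were called higher and 1 lower. The shares of all genes called higher were 1.18% in the T and NK class, 0.22% in macrophages, 0.102% in lymphatic endothelial cells, 0.0314% in mural cells and 0.0272% in satellite cells. The shares called lower were 4.43% in myofibre barcodes, 0.355% in macrophages, 0.0543% in satellite cells, 0.0436% in erythroid cells, 0.0237% in Schwann cells, 0.0203% in lymphatic endothelial cells and 0.0158% in tenocytes. Leaving out Rpl39 and Rpl22l1, 842 of 935 log2 changes were within 0.25 of the median of their class, but the spread differed between classes. In neutrophils only 38 of 78 members were this close and in myofibre barcodes 50 of 77, while in the other 10 classes it was at least 68 of 78. In mural cells, for example, the median over members was 0.25 beside 0.01 over all genes. All OSA libraries were above control for 45 of 80 members there, where 25% of all genes tested did so. The mural class also held the endothelial markers given above. In fibroblasts the median was 0.12 beside 0.03, and 16 of 80 members had all OSA libraries above control, where 24.5% of all genes tested did so. In neutrophils the median was 0.26, while the median over all genes was itself 0.21, and with class totals as the only scaling the median of the members was -0.07. These shifts were smaller without OSA replicate 3, where the medians lay between -0.05 in lymphatic endothelial cells and 0.16 in neutrophils, with -0.03 in fibroblasts, and 562 of 957 changes were above 0.

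Having all OSA libraries on 1 side of the control was common among all genes as well, and a members' count near that share is no result about the members. All OSA libraries were above control for 34 of 80 members in Schwann cells and 42 of 80 in erythroid cells, against 21.9% and 25.2% of all genes tested in these classes. The erythroid count is from the class with the endothelial markers given above. The same held for 23 of 80 in endothelial cells and 15 of 80 in lymphatic endothelial cells, against 26% and 26.1% of all genes. In satellite cells it was 33 of 80 and in tenocytes 31 of 80, against 26.9% and 26.1%. In macrophages it was 35 of 80, against 34.6%, in myofibre barcodes 37 of 78, against 31.3%, and in neutrophils 42 of 79, against 36.8%. The neutrophil count rests on the TMM scaling, with factors of 0.992, 0.965 and 0.877 in OSA and 1.19 in control. With class totals as the only scaling 31 of the 79 log2 changes in neutrophils were above 0 and 48 below. The share of UMIs in neutrophils was below control in all OSA libraries, as given above. In the T and NK class Rpl39 alone lay above control in all OSA libraries, where 28.9% of all genes did so.

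All OSA libraries below control was also counted outside the T and NK class. It was found for 15 of 79 members in neutrophils, 4 of 78 in myofibre barcodes and 3 of 80 in macrophages, against 27.8%, 30.6% and 32.9% of all genes tested. The neutrophil count rests on the TMM scaling here too. All OSA libraries lay below control for 2 of 80 members in lymphatic endothelial cells and for 1 of 80 in tenocytes and in fibroblasts, against 25.9%, 26.9% and 24.0% of all genes. In Schwann, endothelial, erythroid, mural and satellite cells this was found for 0 members, against 21.9%, 26.7%, 26.3%, 25.5% and 25.6% of all genes.

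**Figure D2:**
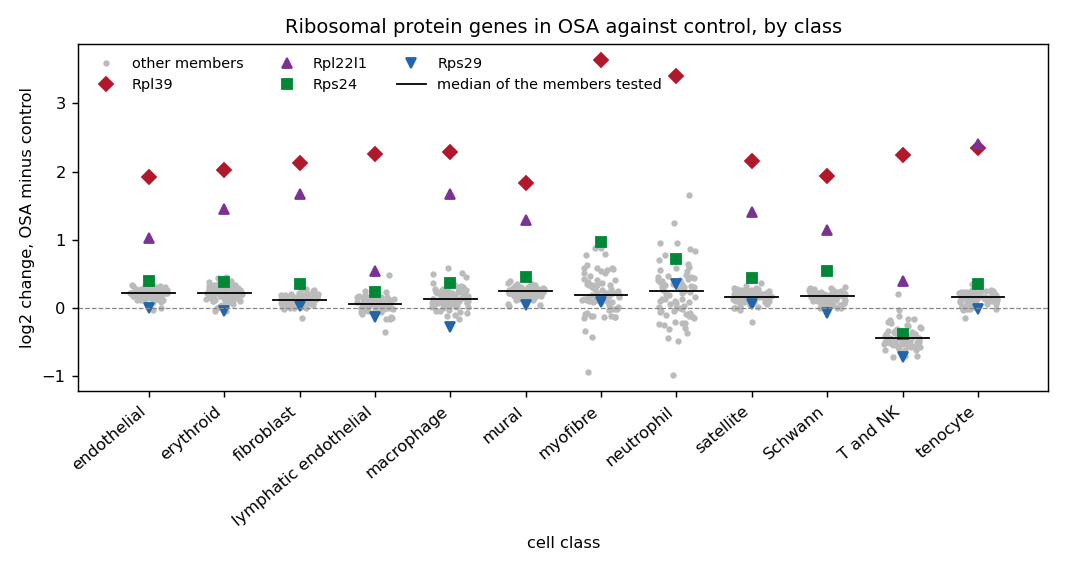
Log2 change between OSA and control (vertical axis) for every ribosomal protein gene tested in each of 12 classes (horizontal axis). Grey points are members, coloured symbols are Rpl39, Rpl22l1, Rps24 and Rps29 and the black bar is the class median. The median is -0.43 in the T and NK class and lies between 0.06 and 0.26 elsewhere, while Rpl39 lies between 1.83 and 3.64 in all 12 classes.

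Rpl39 stood apart from the other members. Over the cells of the 12 classes it made up 0.680%, 0.551% and 0.226% of the ribosomal protein UMIs in OSA replicates 1, 2 and 3, and 0.127% in control. All OSA libraries were above control, and the OSA libraries themselves differed more from each other than OSA replicate 3 did from control. The same order of libraries, from OSA replicate 1 through replicates 2 and 3 to control, was found in 12 of 12 classes. The ratio of the highest to the lowest library was 5.33 for Rpl39, while for the 78 members other than Rpl39 and Rpl22l1 it ran from 1.005 for Rps13 to 1.46 for Rpl7l1 with a median of 1.08.

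**Figure D3:**
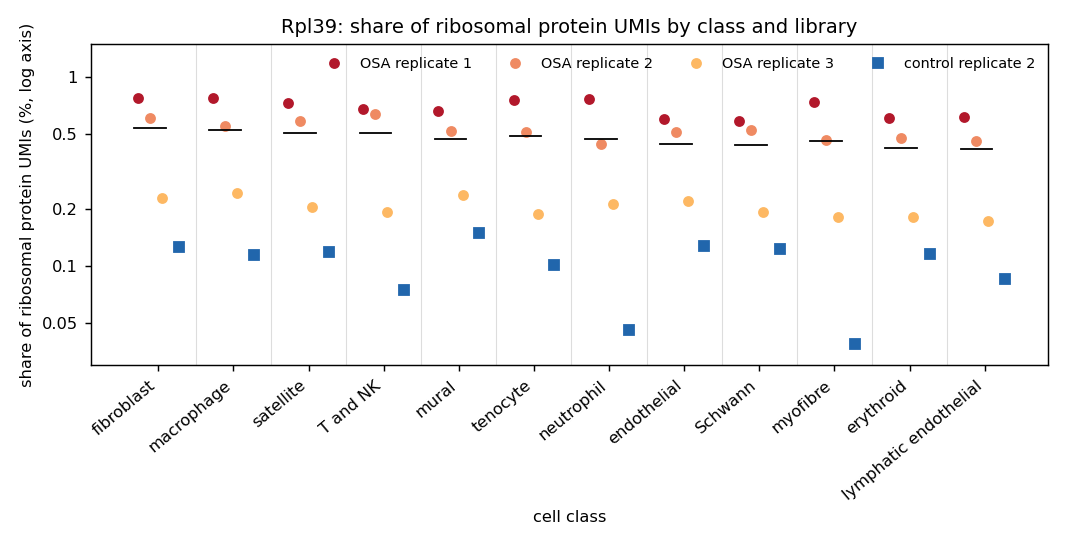
Share of ribosomal protein UMIs that were Rpl39 (vertical axis, percent, log scale) in 12 cell classes (horizontal axis). Circles are OSA replicates 1 to 3 from left to right, squares are control replicate 2 and the black bar is the OSA mean. In every class the 4 libraries fall in the same order, and the control square is the lowest point.

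By class the OSA mean of this share was between 3.17 times the control in mural cells and 11.9 times in myofibre barcodes, with a median of 4.42 times. In fibroblasts Rpl39 held 0.776%, 0.608% and 0.231% of the ribosomal protein UMIs in OSA and 0.126% in control. In endothelial cells it held 0.602%, 0.511% and 0.222% in OSA and 0.128% in control. In satellite cells it held 0.727%, 0.584% and 0.205% in OSA and 0.120% in control. Between the classes the shares ran from 0.591% in Schwann cells to 0.781% in macrophages in OSA replicate 1, and from 0.0388% in myofibre barcodes to 0.149% in mural cells in control. In macrophages the 3 OSA values were 0.781%, 0.552% and 0.245%, against 0.115% in control. The exact permutation test over the 4 libraries gave p = 0.25 in the T and NK, Schwann and endothelial classes and p = 0.5 in the other 9.

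In the gene test Rpl39 had the highest log2 change of all members in 11 of the 12 classes and the second highest in tenocytes. The change lay between 1.83 in mural cells and 3.64 in myofibre barcodes. It passed the threshold in 2 classes, Schwann cells and myofibre barcodes. In Schwann cells, the glia of peripheral nerve, Rpl39 had 589, 563 and 255 CPM in OSA and 124 CPM in control and rose by 1.93 ± 0.28 (SE; edgeR adjusted p = 1.41e-07), where 0.134% of all genes tested were called higher. In myofibre barcodes it had 882, 603 and 289 CPM in OSA and 45.6 CPM in control, with a log2 change of 3.64 ± 0.61 (edgeR adjusted p = 3.14e-07), where 0.821% of all genes tested were called higher. The myofibre control value rests on 3 UMIs, and the ratio of counts was 14.1 with a 95% counting interval of 4.77 to 68.7. In neutrophils the control held 2 UMIs, and the ratio was 8.47 with an interval of 2.33 to 70.2. These intervals cover counting error only. The myofibre markers themselves, at 8690, 5955 and 3796 CPM in OSA and 58888 CPM in control, differed between the barcodes compared, and their part in the Rpl39 value was not tested.

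In the other 10 classes Rpl39 did not pass. In endothelial cells it had 705, 680 and 383 CPM in OSA and 156 CPM in control (log2 change 1.92 ± 0.37, adjusted p = 0.591), and in fibroblasts 1097, 915 and 453 CPM in OSA and 189 CPM in control (2.12 ± 0.52, adjusted p = 0.935). The groups did not overlap in either class, although the spread among the OSA libraries was wide. Which classes passed depended on the fit. Rpl39 was called in more classes when an OSA library was left out, but calls among all genes also rose in many classes of those fits. Its median log2 change over the classes was 2.20 with all libraries, and 1.90, 2.06 and 2.52 without OSA replicates 1, 2 and 3. By edgeR without its robust option it was called in 5 classes. The DESeq2 Wald test called it in 5, Schwann cells not among them. The direction was the same in every class under each of these fits.

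**Figure D4:**
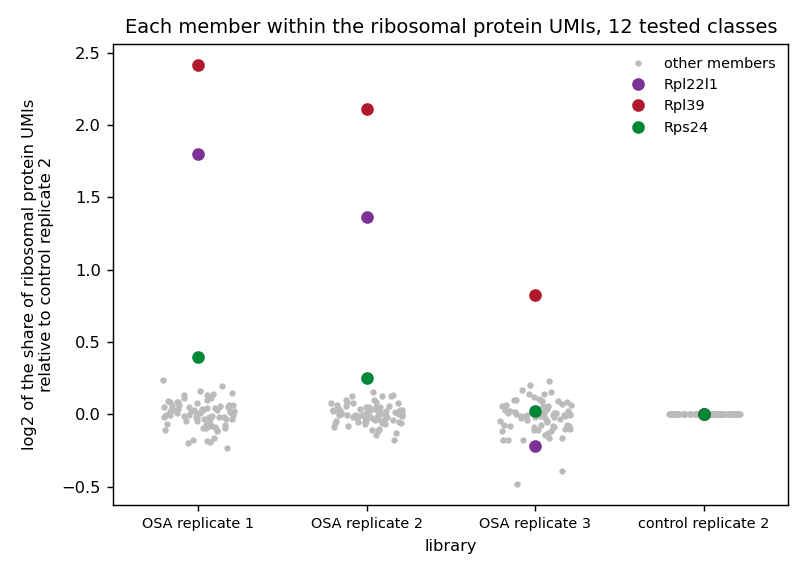
Share of each of the 80 members within the ribosomal protein UMIs of the cells of the 12 tested classes, as log2 of its ratio to control replicate 2 (vertical axis), for the 3 OSA libraries and the control, which is 0 by construction (horizontal axis). Grey points are members, and Rpl39, Rpl22l1 and Rps24 are coloured. Rpl39 is far above the other members in OSA replicates 1 and 2, and Rpl22l1 is high in the same libraries but not in OSA replicate 3.

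The pattern was also read within single cells of high depth. Among fibroblasts with at least 2000 ribosomal protein UMIs (177, 355 and 668 cells in OSA and 276 in control) the median was 8.30, 6.47 and 2.26 Rpl39 UMIs per 1000 ribosomal protein UMIs in OSA and 1.22 in control. The middle 50% of cells ran from 6.51 to 10.1 in OSA replicate 1 and from 0.469 to 2.10 in control. The 5th percentile was 3.56 in OSA replicate 1, and 3.10%, 7.49% and 12.3% of the cells were at 0 in OSA replicate 2, OSA replicate 3 and control. From counting error alone 7.29e-05%, 0.221% and 3.53% were expected at 0 in these libraries. More cells were thus without Rpl39 than the library level would give, and the reason was not tested. Satellite cells of the same depth gave medians of 7.75, 6.11 and 1.92 in OSA and 1.10 in control. In both classes the order of the libraries was that of the summed counts.

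**Figure D5:**
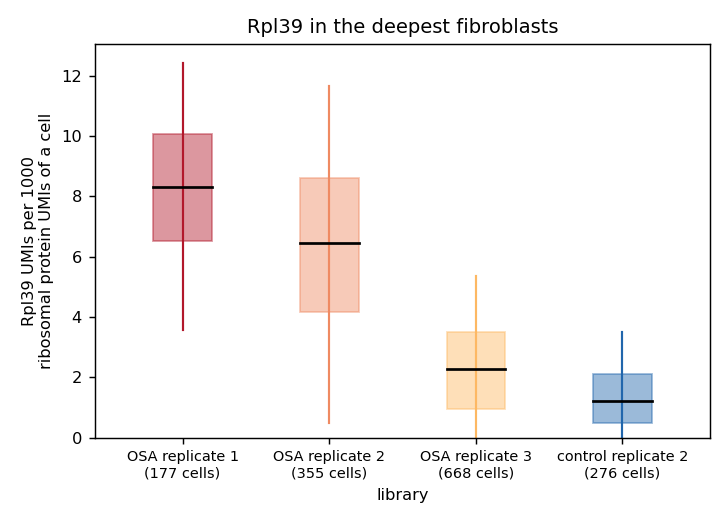
Rpl39 UMIs per 1000 ribosomal protein UMIs (vertical axis) in single fibroblasts with at least 2000 ribosomal protein UMIs, for 3 OSA libraries and control replicate 2 (horizontal axis). Boxes span the 25th to the 75th percentile, the black line is the median and the thin line spans the 5th to the 95th percentile. The medians are 8.30, 6.47 and 2.26 in OSA replicates 1 to 3 and 1.22 in control.

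Rpl22l1, the paralogue of Rpl22, came second. It is a rare member, with 13339 UMIs in all, and made up 0.0540%, 0.0399% and 0.0133% of the ribosomal protein UMIs in OSA and 0.0155% in control. OSA replicates 1 and 2 were above control and OSA replicate 3 was below it. In the gene test its log2 change was above 0 in the 10 classes where it could be tested, from 0.39 in the T and NK class to 2.40 in tenocytes, and edgeR called 0 of them (2 at an unadjusted p under 0.05, and 0 by DESeq2). In tenocytes, fibroblast relatives of tendon, it had 62.9, 43.9 and 12.5 CPM in OSA and 7.54 CPM in control (2.40 ± 1.62, adjusted p = 0.999), where the control held 13 UMIs. Rpl22, which Rpl22l1 resembles, made up 0.554%, 0.544% and 0.526% of the ribosomal protein UMIs in OSA and 0.522% in control, a ratio of 1.06 between the highest and the lowest library.

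Rps24, a small subunit protein with a role in ribosomal RNA maturation, was the member nearest to Rpl39 in its pattern over classes and libraries, among the 77 others tested in all 12 classes, which leaves out Rpl22l1 and Rpl7l1. Its share of ribosomal protein UMIs was 1.44%, 1.30% and 1.11% in OSA and 1.10% in control. In fibroblasts Rps24 had 2038, 1937 and 2221 CPM in OSA and 1623 CPM in control (0.35 ± 0.31, adjusted p = 1.00). In Schwann cells it had 1237, 1249 and 1289 CPM in OSA and 859 CPM in control (0.55 ± 0.28, adjusted p = 1.00). All OSA libraries lay above control in 11 of the 12 classes, the exception being the T and NK class, where all lay below. Between 21.9% and 36.8% of all genes tested in a class had all OSA libraries above control. Its median log2 change was 0.39, and edgeR called it in 0 classes (2 at an unadjusted p under 0.05, and 0 by DESeq2).

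Of the other members at the ends of their class, none passed the threshold. Rps27l, a paralogue of Rps27 induced by p53, had 96.0, 93.1 and 123 CPM in neutrophils of OSA and 32.6 CPM in those of control (1.66 ± 0.70, adjusted p = 0.806). Rpl7l1, a relative of Rpl7 that works in the making of the subunits, had 36.9, 16.4 and 32.6 CPM in the same OSA cells and 54.4 CPM in control (-0.98 ± 0.81, adjusted p = 0.828). Rps9, a small subunit gene, had 2058, 2245 and 2035 CPM in OSA neutrophils and 2938 CPM in control (adjusted p = 0.884). The neutrophil class had 180, 490 and 245 cells in OSA and 43 in control, and its clusters were unevenly filled: that led by Ngp and Ltf held 73.7% of the class in OSA replicate 2, 1.11% and 1.63% in OSA replicates 1 and 3, and none in control.

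In myofibre barcodes Rps2, which sits at the mRNA entry of the small subunit, had 1140, 1382 and 1850 CPM in OSA and 2798 CPM in control (-0.94 ± 0.31, adjusted p = 0.0526). Rplp0 had 1059, 1162 and 1243 CPM in OSA and 1551 CPM in control (adjusted p = 0.597). Rps24 had 1900, 1819 and 2283 CPM in OSA and 1019 CPM in control (0.97 ± 0.36, adjusted p = 0.114). The groups did not overlap for these genes, but the myofibre markers of the same barcodes also differed, as given above, and 31.3% of all genes tested in this class lay all above control and 30.6% all below. In the macrophage class Rps29 had 5207, 5759 and 6507 CPM in OSA and 7022 CPM in control, and Rpl14, a large subunit gene, 1556, 1540 and 1662 CPM in OSA and 1768 CPM in control; both gave adjusted p-values above 0.7. Over the 12 classes Rps29 was above 0 in 6 and below in 6. Rpl14, Rpl36, Rpl37 and Rps21, which were lowest in other classes, had median changes over the classes between -0.02 and 0.07.

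In the 9 classes without a called member, the members gave 9 of 719 tests with an unadjusted p under 0.05 in edgeR, and DESeq2 called 4. The P stalk genes lay near the other members, and the median log2 change over the 12 classes was 0.28 for Rplp0, 0.18 for Rplp1 and 0.14 for Rplp2, and that of Rpsa was 0.24. Each of these 4 genes was below 0 in the T and NK class.

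The mix of members also differed between classes. Rps9 made up 4.67% of the ribosomal protein UMIs in neutrophils, as the mean of the 4 libraries, and 1.03% in myofibre barcodes. Rpl3, at the peptidyl transferase centre, ran from 1.10% in Schwann cells to 0.353% in neutrophils, and Rpl12, at the base of the stalk, from 1.13% in the T and NK class to 0.439% in neutrophils. Rps27l was highest in macrophages, at 0.289%, and lowest in the T and NK class, at 0.0623%. Rpl7l1 ran from 0.0716% in neutrophils to 0.0134% in the T and NK class. Rpl11, the most even member, lay between 0.843% in mural cells and 1.02% in Schwann cells. Classes share their libraries, so these values are given with no test.

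Among 2066 other genes tested in all 12 classes, the 5 whose level followed Rpl39 most closely were Hba-a1, Ctla2a, Adh1, Lpl and Ly6c1. The measure was Pearson's r over 48 values, the log2 CPM of 12 classes in 4 libraries with the mean of each class taken off, and these values share 4 libraries. It was 0.80 for Hba-a1, a haemoglobin gene, Ctla2a and Adh1, an alcohol dehydrogenase gene, 0.77 for Lpl, the lipoprotein lipase gene, and 0.76 for Ly6c1, an endothelial surface protein gene. Over all kept cells Ly6c1 had 2015, 2047 and 1724 CPM in OSA and 1168 CPM in control, and Hba-a1 905, 663 and 422 CPM in OSA and 584 CPM in control. Lpl, Ctla2a and Adh1 were above control in all OSA libraries and Hba-a1 was not. Of the 77 members that could be compared in this way Rps24 was the closest, with 0.66, followed by Rpl7 with 0.37. Rpl22l1 and Rpl7l1, tested in 10 and 11 classes, were not compared.

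Genes that act with the ribosomal proteins were read from 5 lists. Of 22 genes for other translation machinery and TOP mRNAs (elongation and initiation factors and their like), 183 of 260 tests in the 12 classes were above 0 and edgeR called 0. Their class median ran from -0.25 in the T and NK class to 0.42 in neutrophils. Of 50 ribosome biogenesis genes, which make and process ribosomal RNA, 213 of 503 tests were above 0 and 0 were called, with class medians from -0.23 in endothelial cells to 0.32 in neutrophils. Of 19 genes of mTORC1 control, 102 of 192 tests were above 0 and 0 were called. Of 78 mitochondrial ribosomal protein genes, 562 of 820 tests were above 0 and 0 were called, with class medians from -0.63 in myofibre barcodes to 0.38 in neutrophils.

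The list of 14 dissociation and immediate early genes, which respond to tissue handling, gave 78 of 168 tests above 0 and 0 called. Its summed level in fibroblasts was 28551, 20983 and 17310 CPM in OSA and 27396 CPM in control, and in macrophages 10921, 13316 and 7470 CPM in OSA and 19672 CPM in control. In satellite cells and macrophages all 14 genes were below 0. In the T and NK class the sum was 7882, 5454 and 6854 CPM in OSA and 5916 CPM in control, so that the groups overlapped there. The part of handling in the ribosomal protein values was not tested. Over the 5 lists 112 of 1943 tests had an unadjusted p under 0.05, DESeq2 called 2, and between 0% and 4.43% of all genes tested were called in 1 direction in a class.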

How the data were processed

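Droplet-based single-cell RNA sequencing (10x Genomics) was read from the deposited raw UMI counts per gene and barcode, made with Cell Ranger 9.0.1 per the file headers, on GRCm39 per the submitters' processing notes. The members, lists and tests were chosen with earlier results of these data known. Cells were kept with at least 300 genes, at least 500 UMIs and at most 20% of UMIs from mitochondrial genes, and called doublets were dropped. Cells were clustered with scanpy 1.11.5 (2000 variable genes without ribosomal protein genes, 30 components, 15 neighbours, Leiden resolution 1) and clusters were named from at least 3 markers of 21 fixed lists, so class names are rebuilt here. Counts were summed per library and class of at least 30 cells in every library. edgeR 4.0.16 (TMM, filterByExpr, robust quasi-likelihood fit) compared 3 OSA libraries with 1 control library, with Benjamini-Hochberg adjustment over all genes tested in a class. With a single control library the spread comes from the OSA libraries. DESeq2 1.42.0 was an alternative. Named genes were Rpl39, called members, the 2 highest and 2 lowest members of each class, paralogues, P stalk genes with Rpsa, the 5 members that differed most between classes and the 5 genes most like Rpl39. In counts simulated for the same libraries, 116 to 168 of 200 genes changed 4-fold were recovered in 11 classes, and 1 in neutrophils.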

Additional observations from a re-analysis of the deposited data

Results flagged for a closer look

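In 6 of 12 classes every OSA library had a share of UMIs on ribosomal protein genes on 1 side of the control, above it in 4 and below it in 2, and in the other 6 the groups overlapped. The exact permutation test gave p = 0.25 or 0.5 in the 6 classes, where 0.25 is the smallest it can give. The OSA mean minus control was -6.18 percentage points in the T and NK class and -0.818 points in neutrophils. It was higher than control by 3.14 points in myofibre barcodes, by 2.73 points in satellite cells, by 1.61 points in mural cells and by 0.872 points in macrophages. Within the macrophage clusters led by Ccl12, Cd209f and Ear2, and within the neutrophil cluster led by Csf3r, the groups overlapped. In the neutrophil cluster led by Il36g, which had 4 control cells, all OSA libraries were below control. The myofibre barcodes had 8690, 5955 and 3796 CPM of myofibre markers in OSA and 58888 CPM in control. The difference between the classes was not tested, and the single control library takes part in all 6 values.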

How the results depend on the processing

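Calls of ribosomal protein genes over the 12 classes (3 in all) came to 5 with DESeq2 size factors, 8 with class totals as the only scaling, 14 with no filter on low counts, 5 by the DESeq2 Wald test, 5 with counts thinned to equal totals and 1 in classes of at least 100 cells. Leaving out 1 OSA library gave 12 to 77. The 77 came without OSA replicate 3, and most of them were lower calls in the T and NK class. Calls among all genes rose in many classes of these fits too, and fell in some. With no filter they rose in every class but myofibre barcodes. In macrophages they went from 26 higher and 42 lower to 399 and 309. With class totals or the DESeq2 test they rose in some classes and fell in others. Without edgeR's robust option, an alternative chosen after seeing the data, it was 5. Rpl39 was called in 2 classes, and in 1 with class totals, at least 10 counts in every library, doublets kept, scaling by ribosomal protein UMIs or classes of at least 100 cells, in 11 with no filter, in 5 by DESeq2, in 5 without the robust option and in 9 to 11 with an OSA library left out. Its log2 change was above 0 in every class tested under each of these settings. The 5 gene lists had 0 calls, and 2 with class totals, 11 with no filter and 2 by DESeq2. They had 1 with clusters made with ribosomal protein genes, 1 with thinned counts and some with an OSA library left out. Rpl22l1 changed sign without OSA replicate 1, to -0.0956 in the T and NK class and -0.0800 in lymphatic endothelial cells, and leaving out each OSA library gave up to 0.840 and 0.971 there. The cause was not tested.

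Rps29 in the T and NK class lost its call under 8 alternatives, with adjusted p up to 0.446, and Rpl39 in Schwann cells under 5, among them thinned counts (adjusted p = 0.778). The median ratio of OSA to control was 1.08 for the ribosomal protein share (1.02 to 1.12 under the alternatives) and 4.42 for the Rpl39 share (3.39 to 6.19, the last from medians over cells in the 3 classes whose control median was above 0). Without OSA replicate 3 the control lay above all OSA libraries in 4 classes. No paired analysis was possible because the groups share fewer than 2 replicate numbers among the libraries analysed.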
